A study of Mus musculus with 21 samples.

Results

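The interferon regulatory factors (IRFs) are a family of transcription factors that share a DNA-binding domain. The genes described here are the 8 rows of the deposited gene table with the symbol Irf1, Irf2, Irf3, Irf4, Irf5, Irf7, Irf8 or Irf9, out of 57180 genes in all. They were taken by symbol, whatever their level. All 8 passed the filter on low counts, by which 18867 genes in all were kept for testing.

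IRFs bind interferon-stimulated response elements (ISREs) in the promoters of antiviral and inflammatory genes. IRF3, IRF5 and IRF7 wait in the cytoplasm until kinases below nucleic acid sensors and Toll-like receptors phosphorylate them, after which they drive interferon and cytokine genes. Secreted type I interferon acts through its receptor on STAT2, which joins IRF9 in the complex ISGF3, and Irf7 is itself an ISGF3 target gene. Interferon-gamma acts on genes with gamma-activated sites (GAS) and raises IRF1, while IRF2 binds the same elements as IRF1 and can oppose it. IRF8 works with the factor PU.1 and is required for a normal microglial population, and IRF4 is best known from lymphocytes, dendritic cells and some macrophages. Much of the activity of the family is set by phosphorylation, which transcript levels do not show.

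RNA was sequenced from cells sorted from mouse brain, in 21 libraries. Monocyte-derived microglia (MLC, Osb-GFP genotype) and microglia (MG, Osb-GFP genotype) had been transplanted, and microglia of animals without a transplant (NoTx) carried CX3CR1-CreER+/- with CSF1R fl/fl. CX3CR1-CreER places an inducible recombinase under a gene of microglia and monocytes, CSF1R fl/fl is a floxed growth factor receptor gene, and the sources used here give neither its induction nor the genotype of the transplant hosts. Brains were taken 5 days after a seizure evoked by kainic acid, an agonist of glutamate receptors (6 MLC, 4 MG and 3 NoTx libraries, batch 1), or after saline (3 MLC, 3 MG and 2 NoTx libraries, batch 2). Seizure and batch therefore cannot be told apart, nor can transplantation and genotype in comparisons with NoTx. MLC seizure libraries 3 and 6 have 11b in their names and repeat the code of libraries 2 and 4, and whether they come from the same animals is not stated.

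Libraries held between 6571290 and 73842000 estimated counts after seizure and between 36528900 and 50316300 after saline. Xist exceeded 50 CPM in all MG libraries, in 0 of the 9 MLC libraries and in 2 of the 5 NoTx libraries. Y-linked genes exceeded it in 6 of the 7 MG, all 9 MLC and 3 of the 5 NoTx libraries, so most MG libraries carried both kinds of marker, and sex and kind of cell cannot be told apart. The labels were read against markers: 9 microglial genes summed to 18047 to 24987 CPM in MLC, 49244 to 78975 CPM in MG and 58611 to 78945 CPM in NoTx after seizure. Sall1, a defining microglial factor, averaged 4.71 CPM in MLC, 243 CPM in MG and 276 CPM in NoTx after seizure, so the MLC libraries lack much of the microglial signature. A list of 8 border macrophage genes summed to 3015 to 6810 CPM in MLC, 6.13 to 66.8 CPM in MG and 13.2 to 58.0 CPM in NoTx after seizure. The list was not higher as a whole: 7 of its genes had positive log2 fold changes against MG and 6 against NoTx after seizure (edgeR). Lyve1, of that list, was at 0 in all MLC libraries after seizure. Neutrophil markers reached 1655 CPM in NoTx saline library 2 and 819.7 CPM in NoTx seizure library 3, while the other libraries had at most 69.9 CPM. The slope of gene level on GC content ran from -1.70 log2 units per 10 percentage points in MLC seizure library 5 to 0.85 in MG saline library 3.

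Levels are given in TMM-scaled CPM, the share of a library's counts that fall on a gene. Among the members activated by sensors, Irf7, the amplifier of the type I interferon response, ranged from 3.12 to 71.1 CPM in the 6 MLC seizure libraries, with a median of 27.0. Irf7 stood at 6.19, 9.34, 45.8 and 0 CPM in MG and at 0.0691, 16.7 and 10.1 CPM in NoTx after seizure. After saline it was at 41.8, 70.9 and 63.7 CPM in MLC, 16.8, 17.3 and 21.04 CPM in MG and 8.74 and 6.63 CPM in NoTx. The 3 saline groups did not overlap, with MLC on top and NoTx at the bottom, whereas the seizure groups overlapped throughout. After saline MLC lay wholly above MG in 10.4% of tested genes and MG wholly above NoTx in 18.5%. The share with all 3 groups apart was not counted. The library with 0 counts of Irf7, MG seizure 4, held 34108000 counts in all but, scaled to equal depth, 9675 genes with 10 or more counts. MG seizure 3 had 8907 such genes and NoTx seizure 1 had 10264, against 11267 and 11377 in MG seizure 1 and 2. The part of this in the scatter of Irf7 after seizure was not tested.

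Irf5, which links Toll-like receptors to inflammatory cytokine genes, ranged from 18.6 to 125 CPM in MLC after seizure, with a median of 30.5. It measured 111, 172, 171 and 74.5 CPM in MG and 39.4, 123 and 308 CPM in NoTx after seizure. After saline it measured 120, 67.8 and 297 CPM in MLC, 204, 203 and 476 CPM in MG and 107 and 40.1 CPM in NoTx. Its spread was wide, since single libraries (MLC saline 3, MG saline 3, NoTx seizure 3) stood far above the others of their group. Irf3, the constitutive sensor-activated factor, ranged from 16.2 to 88.1 CPM in MLC after seizure, with a median of 48.5. It had 65.6, 72.6, 108 and 49.6 CPM in MG and 39.3, 88.2 and 128 CPM in NoTx after seizure, and 98.7, 90.0 and 100.1 CPM in MLC, 98.3, 90.5 and 123 CPM in MG and 73.9 and 49.5 CPM in NoTx after saline. All 3 MLC saline libraries lay above all 6 MLC seizure libraries.

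Irf9, the DNA-binding subunit of ISGF3, varied less, with group means between 132 and 227 CPM. Its SD was between 6.18% and 34.9% of the mean within the 6 groups. Irf1, the interferon-gamma responsive activator, ranged from 49.2 to 145 CPM in MLC after seizure, with a median of 81.9, against 79.2, 47.1, 136 and 35.6 CPM in MG and 34.3, 21.9 and 88.9 CPM in NoTx. After saline Irf1 had 96.0, 172 and 156 CPM in MLC, 70.1, 109 and 89.2 CPM in MG and 45.0 and 25.3 CPM in NoTx. Both NoTx saline libraries lay below all 6 saline libraries of transplanted cells, as they also did for Irf3, Irf7 and Irf9. The share of tested genes with that pattern was not counted. Both lay below all MLC libraries in 15.3% of tested genes and below all MG libraries in 18.5%. Irf2, the antagonist of Irf1, was the steadiest member, with group means from 126 to 177 CPM and an SD of 3.11% to 23.5% of the mean.

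Irf8, the partner of PU.1, ranged from 123 to 365 CPM in MLC after seizure, with a median of 184. The other seizure groups had 436, 423, 388 and 204 CPM in MG and 206, 312 and 367 CPM in NoTx. After saline Irf8 measured 317, 286 and 398 CPM in MLC, 260, 296 and 787 CPM in MG and 297 and 253 CPM in NoTx, and the 787 CPM of MG saline library 3 was the highest value of any member in any library. Irf4 was scarce. Its counts summed to 2425 over the 21 libraries, against 197458 for Irf8, and it was at 0 in 2 libraries. Its highest level was 23.6 CPM, in NoTx seizure library 1.

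**Figure D1:**
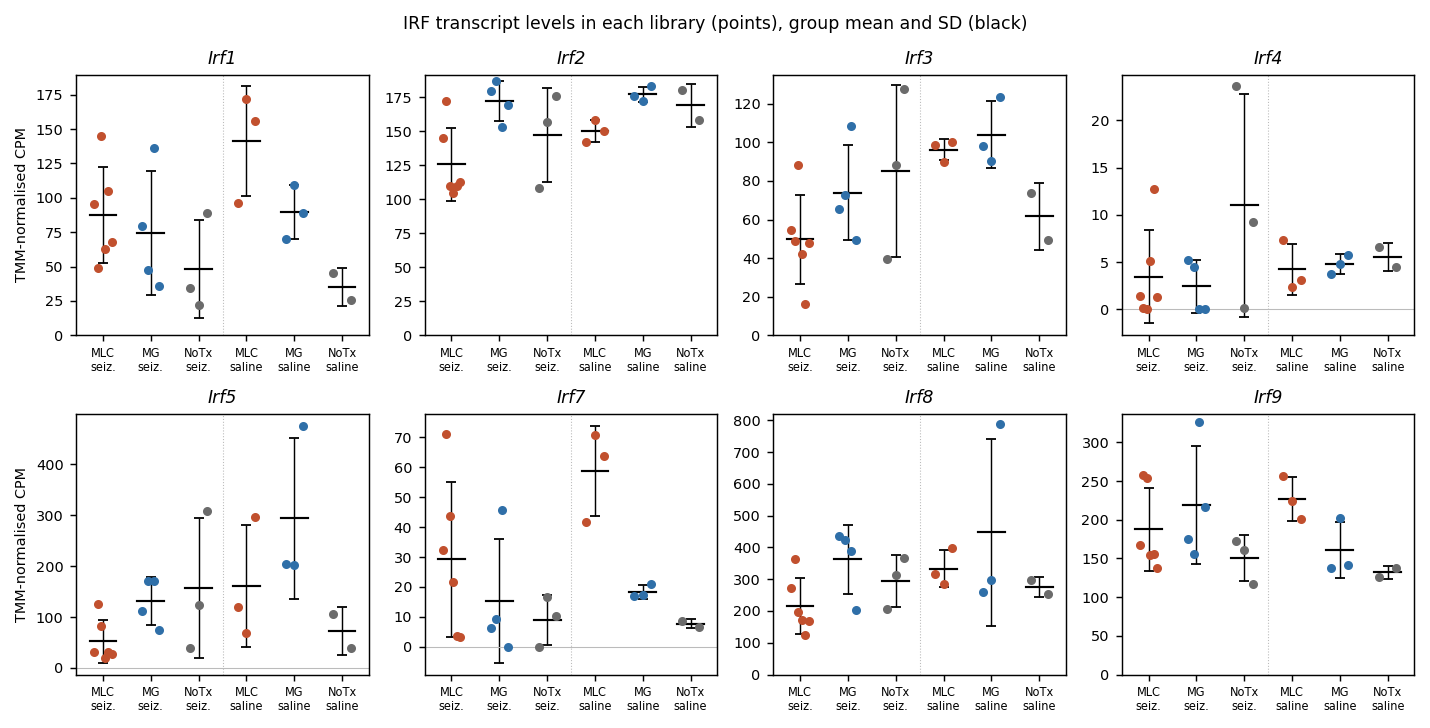
Level of each IRF member in every library, in TMM-normalised CPM on a linear axis per gene, for MLC, MG and NoTx after seizure (left of the dotted line) and after saline (right); points are libraries, long black bars group means and thin bars the SD. The 3 MLC saline libraries of Irf7 sit between 41.8 and 70.9 CPM, above all 5 other saline libraries, while most groups of other members overlap.

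Ordered by mean, the 6 groups formed no separate levels for any member: in each of the 8 orders, every pair of neighbouring groups had overlapping libraries. MLC saline had the highest mean for Irf1, Irf7 and Irf9, MG saline for Irf2, Irf3, Irf5 and Irf8, and NoTx seizure for Irf4. MLC seizure had the lowest mean for Irf2, Irf3, Irf5 and Irf8. In bulk libraries of sorted cells, a lower level through fewer expressing cells and through less RNA per cell cannot be told apart.

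Set against each other per kilobase of the principal transcript, Irf8 was the most abundant member in 5 of the 6 groups. Its mean was 76.0 CPM per kb in MLC, 127 in MG and 104 in NoTx after seizure, and 117 in MLC, 157 in MG and 96.6 in NoTx after saline. In MLC after seizure Irf9 had 76.2 CPM per kb, close to Irf8. The order depended on the length used. With the length of all annotated exons instead, Irf5 had 101 and Irf8 63.5 CPM per kb in MG saline. By that length Irf5 also stood above Irf8 in MLC saline (55.6 against 47.3) and in NoTx after seizure (54.0 against 41.8). Irf7 was the second lowest and Irf4 the lowest member in all 6 groups, Irf4 with 0.514 to 2.31 CPM per kb. Irf7 made up 6.31% of the summed per-kilobase level of the family in MLC saline, 1.82% in MG saline and 1.33% in NoTx saline.

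**Figure D2:**
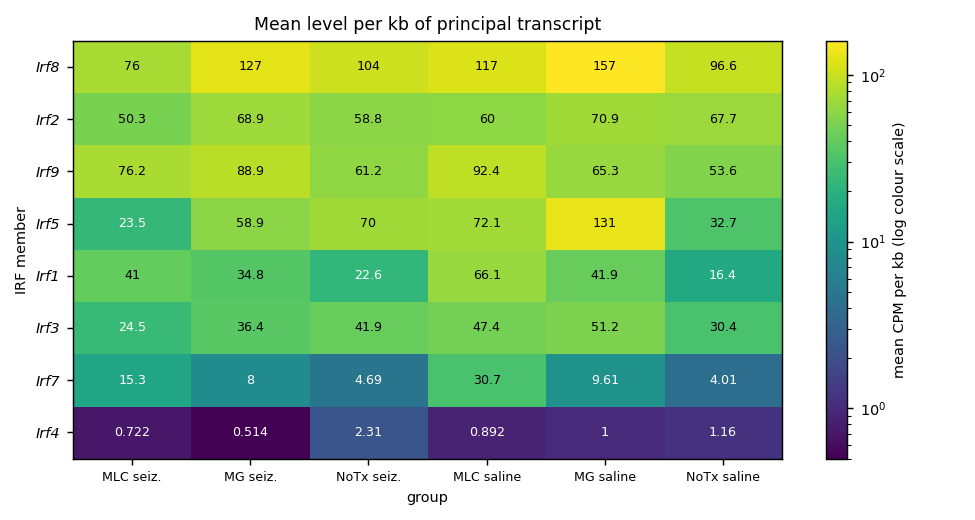
Mean level of each IRF member (rows) in each group (columns), in CPM per kb of principal transcript, written in the cell and coloured on a log scale. Irf8 has the highest value in every column but that of MLC after seizure, where Irf9 (76.2) and Irf8 (76.0) are close, and Irf4 has the lowest in every column.

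The annotation places exons of other genes over exons of 5 members. The largest overlap was 14.15% of the exon bases of Irf5, shared with Tnpo3 on the opposite strand, and those of Irf1, Irf3, Irf7 and Irf9 were between 1.192% and 3.395%. The sources used here do not say whether counting used strand, so reads of Irf5 and Tnpo3 in the shared bases cannot be told apart. Deposited counts differed from a whole number by more than 0.001 in all 21 libraries for Irf1 and Irf5, in 15 for Irf9, 8 for Irf3, 4 for Irf2, 3 for Irf7, 1 for Irf8 and 0 for Irf4, and values are uncertain to that extent.

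The 250 bases upstream of the transcript start are printed for Irf1, Irf2 and Irf8, the members with an ISRE or GAS match there, and for Irf7, whose saline groups did not overlap, from RefSeq on GRCm38.p6. Matches to the ISRE core (GAAA repeated after a gap of 2 bases) or to the GAS letters TTCNNNGAA, searched on both strands, are in capitals.
Irf1, chr11:53769764-53770013, plus strand: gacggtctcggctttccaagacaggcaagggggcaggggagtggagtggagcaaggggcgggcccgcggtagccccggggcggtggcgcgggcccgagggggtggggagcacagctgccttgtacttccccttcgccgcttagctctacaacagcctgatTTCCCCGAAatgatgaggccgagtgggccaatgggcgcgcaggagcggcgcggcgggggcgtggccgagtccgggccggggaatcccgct
Irf2, chr8:46739495-46739744, plus strand: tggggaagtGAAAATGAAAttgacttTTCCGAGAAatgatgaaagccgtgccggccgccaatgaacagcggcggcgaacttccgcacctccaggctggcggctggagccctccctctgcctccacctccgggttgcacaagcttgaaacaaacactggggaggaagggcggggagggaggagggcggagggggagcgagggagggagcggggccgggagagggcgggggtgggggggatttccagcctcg
Irf8, chr8:120736108-120736357, plus strand: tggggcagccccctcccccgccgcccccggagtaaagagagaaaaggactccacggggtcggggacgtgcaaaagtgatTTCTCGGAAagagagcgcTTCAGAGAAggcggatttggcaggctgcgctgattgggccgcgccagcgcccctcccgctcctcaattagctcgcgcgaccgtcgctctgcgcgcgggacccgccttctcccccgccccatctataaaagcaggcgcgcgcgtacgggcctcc
Irf7, chr7:141266425-141266674, minus strand: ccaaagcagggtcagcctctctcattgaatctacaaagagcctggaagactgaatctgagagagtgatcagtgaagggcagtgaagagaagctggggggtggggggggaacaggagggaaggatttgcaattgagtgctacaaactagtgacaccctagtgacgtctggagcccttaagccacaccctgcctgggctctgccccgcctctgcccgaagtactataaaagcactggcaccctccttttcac
RefSeq gives Irf1, Irf8 and Irf9 a second start, and the second windows of Irf1 and Irf8 held 0 ISRE and 0 GAS matches. In the windows printed, Irf1 held 1 GAS match, at 90 to 82 bases before the start, and Irf8 held 2, the nearer ending 145 bases before it. Irf2 held an ISRE match and a GAS match that did not overlap. No ISRE or GAS letters were found in the windows of Irf3, Irf4, Irf5, Irf7 or Irf9. Of 32536 windows of the same length upstream of mouse genes, 2.978% held the ISRE letters and 7.041% the GAS letters. The letters GAGGAA, the core bound by PU.1, were in 23.36% of windows, and in those of Irf2, Irf4 and Irf9 among the members. A match is a description of the sequence and does not show binding.

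In the edgeR quasi-likelihood test, 0 of 8 members passed an adjusted p of 0.05 in any of the 12 comparisons. The comparison of monocyte-derived with transplanted microglia asks whether the origin of the transplanted cells matters. In MLC against MG after saline, 1.58% of all tested genes passed. Irf7 had the largest difference, with a mean of 58.8 ± 15.1 CPM in MLC and 18.4 ± 2.30 CPM in MG (SD, n = 3 each), a log2 fold change of 1.68 (SE 1.41, adjusted p = 1, edgeR). All MLC libraries lay above all MG libraries, as did those of 10.4% of tested genes. Fitted on these 6 libraries alone, the log2 fold change was 1.72 with an adjusted p of 0.013 (edgeR). In that fit 872 genes passed in all, in place of 299. Irf2 lay lower in all 3 MLC libraries than in all 3 MG libraries, with a log2 fold change of -0.24 (SE 0.27, adjusted p = 1, edgeR), as did 12.4% of tested genes. The other 6 members overlapped between the groups, with 0 of 8 members at an unadjusted p under 0.05. Irf8 averaged 333 CPM in MLC and 448 CPM in MG, a log2 fold change of -0.43, which was 0.27 without MG saline library 3 and -0.66 without MG saline library 1.

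In MLC against MG after seizure, 5.88% of tested genes passed. Irf5, Irf8 and Irf2 were the 3 members with an unadjusted p under 0.05, each with a lower mean in MLC. By unadjusted p (edgeR) they ranked 3354, 3811 and 4337 among the 18867 tested genes, so many other genes had a smaller p. Irf5 averaged 52.6 ± 42.2 CPM in MLC and 132 ± 47.7 CPM in MG (SD, n = 6 and 4), a log2 fold change of -1.33 (SE 0.56, adjusted p = 0.15, edgeR). Irf8 averaged 217 ± 87.8 CPM in MLC and 363 ± 108 CPM in MG, a log2 fold change of -0.74 (SE 0.33, adjusted p = 0.16). Irf2 had a log2 fold change of -0.46 (SE 0.21, adjusted p = 0.18). The libraries of all 8 members overlapped between MLC and MG, where those of 5.41% of tested genes did not. With a correction for the GC trend of each library, the log2 fold change was -0.69 for Irf5, -0.09 for Irf8 and -0.38 for Irf2. The correction takes no account of group, so a GC trend of the library and one of the cells cannot be told apart. With a block for the code that ends each seizure library's name (F1, M1, F2 or M2), Irf5 passed (log2 fold change -1.67, adjusted p = 0.034, edgeR). With that block 1207 genes passed in all, in place of 1109, and what the code stands for is not given.

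MLC against NoTx contrasts monocyte-derived cells with the microglia of animals without a transplant. After saline, 1.26% of tested genes passed, and 6 of 8 members had positive log2 fold changes, with a median of 0.71, against 0.08 for all tested genes. Irf1 averaged 141 ± 40.0 CPM in MLC and 35.1 ± 13.9 CPM in NoTx (SD, n = 3 and 2), a log2 fold change of 2.01 (SE 0.63, adjusted p = 0.18, edgeR). Irf7 averaged 58.8 CPM in MLC and 7.69 CPM in NoTx, a log2 fold change of 2.93 (SE 1.73, adjusted p = 0.78). Irf9 averaged 227 CPM in MLC and 132 CPM in NoTx, a log2 fold change of 0.78 (SE 0.37, adjusted p = 0.60). In these 3 and in Irf3 every MLC library lay above both NoTx libraries, as it did in 15.3% of tested genes. The calls depended on the method: Irf1 passed with DESeq2, and Irf1 and Irf9 passed with limma-voom. Irf7 passed when only these 5 libraries were fitted (adjusted p = 0.015, edgeR). In these 3 settings 669, 1542 and 499 genes passed in all, in place of 237. Both NoTx saline libraries held blood monocyte markers (138 and 1007 CPM, against 3.43 to 8.06 CPM in MLC) beside their neutrophil markers, whose part in these differences was not tested. Without NoTx saline library 2, the richer in both lists, the log2 fold change of Irf1 was 1.64 and that of Irf7 2.74.

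After seizure, 6.16% of tested genes passed between MLC and NoTx. Irf5 was the 1 member with an unadjusted p under 0.05 (edgeR), at rank 2363 of the 18867 tested genes. It averaged 52.6 ± 42.2 CPM in MLC and 157 ± 137 CPM in NoTx (SD, n = 6 and 3), a log2 fold change of -1.58 (SE 0.59, adjusted p = 0.12, edgeR). That value rested on single libraries: it was -2.04 with an adjusted p of 0.040 without MLC seizure library 2, and -0.63 with an adjusted p of 0.63 without NoTx seizure library 3, the one with 819.7 CPM of neutrophil markers. Irf7 averaged 29.3 CPM in MLC and 8.98 CPM in NoTx, a log2 fold change of 1.70 (SE 1.29, adjusted p = 0.45), with overlapping libraries. That value was 1.12 without NoTx seizure library 1 and 2.51 without NoTx seizure library 2. The signs of the Irf8 and Irf3 differences turned with the GC correction, which gave 0.28 in place of -0.45 for Irf8 and 0.03 in place of -0.78 for Irf3. Without NoTx seizure library 3 they were -0.26 for Irf8 and -0.36 for Irf3, and without MLC seizure library 5 they were -0.24 and -0.51. With the same correction Irf5 was at -0.70. The libraries of all 8 members overlapped, where those of 9.22% of tested genes did not.

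MG against NoTx sets transplanted beside endogenous microglia. In MG against NoTx after saline 0.053% of tested genes passed, and 7 of 8 members had positive log2 fold changes, with a median of 0.73 against 0.02 for all tested genes. Irf5 averaged 294 ± 158 CPM in MG and 73.3 ± 46.9 CPM in NoTx (SD, n = 3 and 2), a log2 fold change of 2.00 (SE 0.86, adjusted p = 1, edgeR), and that of Irf1 was 1.35 (SE 0.61, adjusted p = 1). These were the 2 members with an unadjusted p under 0.05, at ranks 376 and 490 of the 18867 tested genes. In Irf1, Irf3, Irf5, Irf7 and Irf9 all 3 MG libraries lay above both NoTx libraries, as they did in 18.5% of tested genes. Without MG saline library 3 the log2 fold change of Irf5 was 1.48 and that of Irf8 0.02, in place of 0.70, and the GC correction gave 0.06 for Irf8.

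After seizure 0.0742% of tested genes passed between MG and NoTx, and no member had an unadjusted p under 0.05. All 8 members overlapped between these groups, where 3.86% of tested genes did not. The 95% interval of the log2 fold change was narrowest for Irf2, from -0.30 to 0.75, and for Irf8 it ran from -0.52 to 1.11. For Irf4 it ran from -5.75 to 1.39, so the data set no close limit on that gene.

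**Figure D3:**
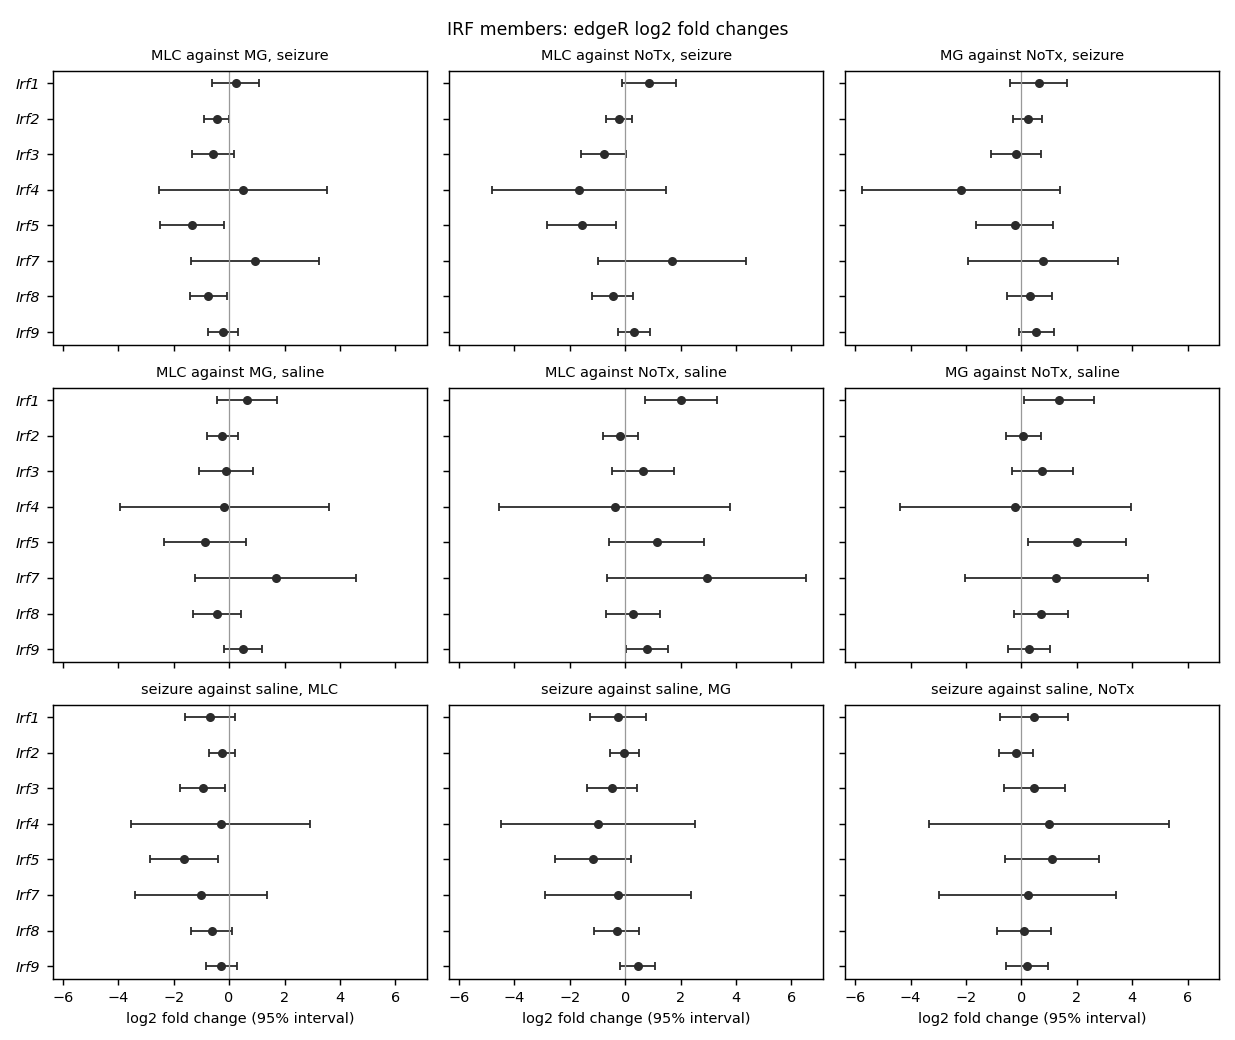
The edgeR log2 fold changes (points, with 95% intervals as bars) of the 8 members in 9 comparisons, positive where the first-named group is higher. The intervals of Irf4 and Irf7 are the widest, and in MLC seizure against saline all 8 points are below 0.

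Seizure against saline asks how each kind of cell differed 5 days after the seizure, within the limit set by batch. In MLC, 0% of tested genes passed. All 8 members had negative log2 fold changes there, with a median of -0.66 against -0.06 for all tested genes. Irf5 averaged 52.6 CPM after seizure and 162 CPM after saline, a log2 fold change of -1.62 (SE 0.59, adjusted p = 0.34, edgeR), and Irf3 averaged 49.7 CPM after seizure and 96.3 CPM after saline, a log2 fold change of -0.95 (SE 0.39, adjusted p = 0.36). Both had an unadjusted p under 0.05, at ranks 683 and 1263 of the 18867 tested genes. The Irf3 libraries did not overlap, as was the case with lower seizure libraries in 5.05% of tested genes. With the GC correction these values were -0.78 for Irf5 and -0.17 for Irf3, and those of Irf1, Irf4, Irf8 and Irf9 turned positive. Without MLC saline library 3 the Irf5 value was -0.83.

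In MG, 0.0371% of tested genes passed between seizure and saline, and 7 of 8 members had negative log2 fold changes, none at an unadjusted p under 0.05. Irf5 averaged 132 CPM after seizure and 294 CPM after saline, a log2 fold change of -1.16 (SE 0.66, adjusted p = 0.50, edgeR). Its 4 seizure libraries lay below its 3 saline libraries, as in 11.9% of tested genes, and the value was -0.64 without MG saline library 3 and -0.70 with the GC correction. In NoTx, 0.106% of tested genes passed, and 7 of 8 members had positive log2 fold changes, none at an unadjusted p under 0.05. Irf5 averaged 157 CPM after seizure and 73.3 CPM after saline there, a log2 fold change of 1.10 (SE 0.83, adjusted p = 0.97), which was 0.15 without NoTx seizure library 3, 0.56 without NoTx saline library 2 and 1.97 without NoTx saline library 1. All 8 members overlapped between the NoTx groups, where 21.2% of tested genes did not.

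The difference between these responses was tested as an interaction. For MLC against NoTx, 0.0265% of tested genes passed, and the members with an unadjusted p under 0.05 were Irf5 (log2 difference -2.72, SE 1.04, adjusted p = 0.59, edgeR) and Irf3 (-1.42, SE 0.67, adjusted p = 0.61). By unadjusted p they ranked 469 and 1397 among the 18867 tested genes. For MG against NoTx, 0.0106% passed, and Irf5 had a log2 difference of -2.25 (SE 1.07, adjusted p = 0.69). With the GC correction these values were -1.50 for Irf5 and -0.29 for Irf3 in MLC against NoTx and -1.42 for Irf5 in MG against NoTx. Without NoTx seizure library 3 those of Irf5 were -1.77 in MLC against NoTx and -1.31 in MG against NoTx. For MLC against MG, 0% passed, and 0 of 8 members had an unadjusted p under 0.05.

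The genes above the family were read from fixed lists. The 11 interferon ligand genes were almost silent in these cells: Ifnb1 summed to 42 counts over all 21 libraries, Ifnk to 17 and Ifnz to 1, while Ifng and the 4 interferon-alpha genes listed were at 0, and none was kept for testing. Of the 15 tested receptor and JAK-STAT genes, 1 passed as higher and 1 as lower in MLC against MG after seizure (edgeR). Some also passed in MLC against NoTx after seizure and after saline. Of all tested genes, 5.88% passed against MG and 6.16% against NoTx after seizure, and 1.26% against NoTx after saline. Il10rb, a subunit shared by the interferon-lambda and interleukin receptors, was higher in MLC than in NoTx after saline and than in MG after seizure. Ifngr1, the ligand-binding receptor of interferon-gamma, was lower in MLC after seizure, with 1268 ± 470 CPM in MLC, 2377 ± 361 CPM in MG and 2370 ± 354 CPM in NoTx, and passed against both. Ifnar2, of the type I interferon receptor, was higher in MLC than in NoTx after seizure (log2 fold change 1.69, adjusted p = 0.024).

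Stat2, a partner of IRF9, passed in no comparison, and averaged 37.9 CPM in MLC, 18.2 CPM in MG and 45.4 CPM in NoTx after seizure. Spi1, which encodes PU.1, the partner of IRF8, had group means between 14.1 and 27.2 CPM, and 0 of the 13 tested partner and cofactor genes passed in any of the 9 comparisons of groups, with at most 4 at an unadjusted p under 0.05 in 1 comparison. Of 28 tested sensors, adaptors and kinases, 1 passed as higher and 1 as lower in MLC against MG after seizure, and 3 and 2 against NoTx. After saline 1 passed as higher and 0 as lower in each. Of all tested genes, 5.88% and 6.16% passed after seizure and 1.58% and 1.26% after saline. Tlr8, an endosomal receptor above IRF5 and IRF7, was higher in MLC in all 4 comparisons. It had 136 ± 52.1 CPM in MLC, 0.184 ± 0.134 CPM in MG and 3.60 ± 5.604 CPM in NoTx after seizure. Tlr3, an endosomal receptor for double-stranded RNA above IRF3, was lower in MLC after seizure, at 35.3 ± 15.97 CPM in MLC, 158 ± 27.7 CPM in MG and 115 ± 18.9 CPM in NoTx, and passed against both. Against NoTx after seizure, Zbp1, a nucleic acid sensor, and Tasl, an adaptor for IRF5, were higher in MLC, and Sting1, the adaptor of the DNA sensor cGAS, was lower (log2 fold change -1.53, adjusted p = 0.031, edgeR).

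Genes known as targets of the family passed as higher in MLC, in lists whose direction is not independent evidence. Of 39 tested ISGF3 target genes, 10 passed as higher and 0 as lower in MLC against MG after seizure, where 2.51% of all tested genes passed as higher. The median log2 fold change of the list was 1.46, against -0.34 for the 8 IRF members and 0 for all tested genes. Against NoTx after seizure, 18 passed as higher and 0 as lower, with 2.55% of all tested genes higher and a list median of 2.21. After saline the counts were 2 against MG and 3 against NoTx, where 0.779% and 0.445% of all tested genes passed as higher. Bst2, an antiviral membrane tether, passed in all 4 comparisons: it averaged 495 ± 89.5 CPM in MLC, 163 ± 60.7 CPM in MG and 99.1 ± 9.94 CPM in NoTx after seizure. Ifi44 averaged 22.3 ± 8.66 CPM in MLC, 0.0795 ± 0.0918 CPM in MG and 0.0832 ± 0.0480 CPM in NoTx after seizure. Oasl1, a gene of the oligoadenylate synthetase family, averaged 7.88 CPM in MLC and was at 0 in all 4 MG libraries after seizure, at least 230-fold higher by a floor of 3 counts over those libraries. Usp18, the negative regulator of the type I interferon receptor, averaged 91.8 ± 39.1 CPM in MLC, 28.8 ± 19.7 CPM in MG and 11.05 ± 3.38 CPM in NoTx after seizure, and passed against both.

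Of 26 tested target genes of IRF1 and interferon-gamma, 3 passed as higher in MLC against MG after seizure and 9 in MLC against NoTx after seizure, with 1 and 2 after saline and 0 lower in each. DESeq2 and limma-voom called 8 and 2 as higher against MG and 16 and 5 against NoTx after seizure. After saline they called 5 and 11 against MG and 10 and 13 against NoTx. Over all genes and in either direction, they called 2568 and 1051 against MG and 2827 and 1325 against NoTx after seizure. After saline these totals were 665 and 1683 against MG and 669 and 1542 against NoTx. Ciita, the master activator of MHC class II genes, averaged 52.6 ± 36.7 CPM in MLC, 2.61 ± 3.99 CPM in MG and 0.251 ± 0.185 CPM in NoTx after seizure. Tap1, the peptide transporter of MHC class I, averaged 78.2 CPM in MLC, 23.1 CPM in MG and 26.7 CPM in NoTx, and passed against MG but not against NoTx. Gbp6, an interferon-induced GTPase, averaged 165 ± 130 CPM in MLC, 17.8 ± 18.8 CPM in MG and 0.482 ± 0.382 CPM in NoTx, and passed against both. In MG against NoTx and in seizure against saline 0 genes of either target list passed with edgeR. The highest counts at an unadjusted p under 0.05 there were 10 of 26 and 7 of 39, in MG against NoTx after seizure. In that comparison DESeq2 called 7 genes of the IRF1 list and 0 of the ISGF3 list higher. It called 670 genes in all, where edgeR called 14. In MG against NoTx after saline limma-voom called 3 of the IRF1 list higher, and 420 genes in all, where edgeR called 10. Elsewhere in these comparisons DESeq2 and limma-voom called 0 of either list higher. The MLC libraries with higher target genes also had higher sums of the border macrophage genes given above, whose part in these differences was not tested. T and NK cell markers, from cells that can make interferon-gamma, summed to at most 5.98 CPM in MLC, 14.3 CPM in MG and 0.0691 CPM in NoTx after seizure. Of the 10 markers, 9 were at 0 in all MG libraries, 6 in all MLC and 6 in all NoTx libraries after seizure. The 14.3 CPM in MG came from MG seizure library 3 alone, and the median in MG was 0. After saline the T and NK cell markers summed to 9.71 to 12.3 CPM in MLC, 0.536 to 1.53 CPM in MG and 0.655 to 0.898 CPM in NoTx. These sums were highest in MLC, as were the mean levels of Irf1 and Irf7. Between MG and NoTx the sums overlapped, where the libraries of Irf1 and Irf7 did not. The 7 plasmacytoid dendritic cell markers also summed higher in every MLC library, with 677 to 977 CPM in MLC, 368 to 581 CPM in MG and 224 to 418 CPM in NoTx after seizure, and 827 to 976 CPM in MLC, 371 to 416 CPM in MG and 368 to 369 CPM in NoTx after saline. Bst2, which is also an ISGF3 target, is in that list and made up much of its sum in MLC after seizure. It was the 1 gene of the list that passed in these comparisons, and Klk1 was at 0 in every group. Of its 6 tested genes, 3 against MG and 2 against NoTx had positive log2 fold changes after saline, and 4 and 5 after seizure. The list medians were -0.06 and -0.61 after saline, and 4.04 and 2.81 after seizure. The part of these cells in the differences was not tested.

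**Figure D4:**
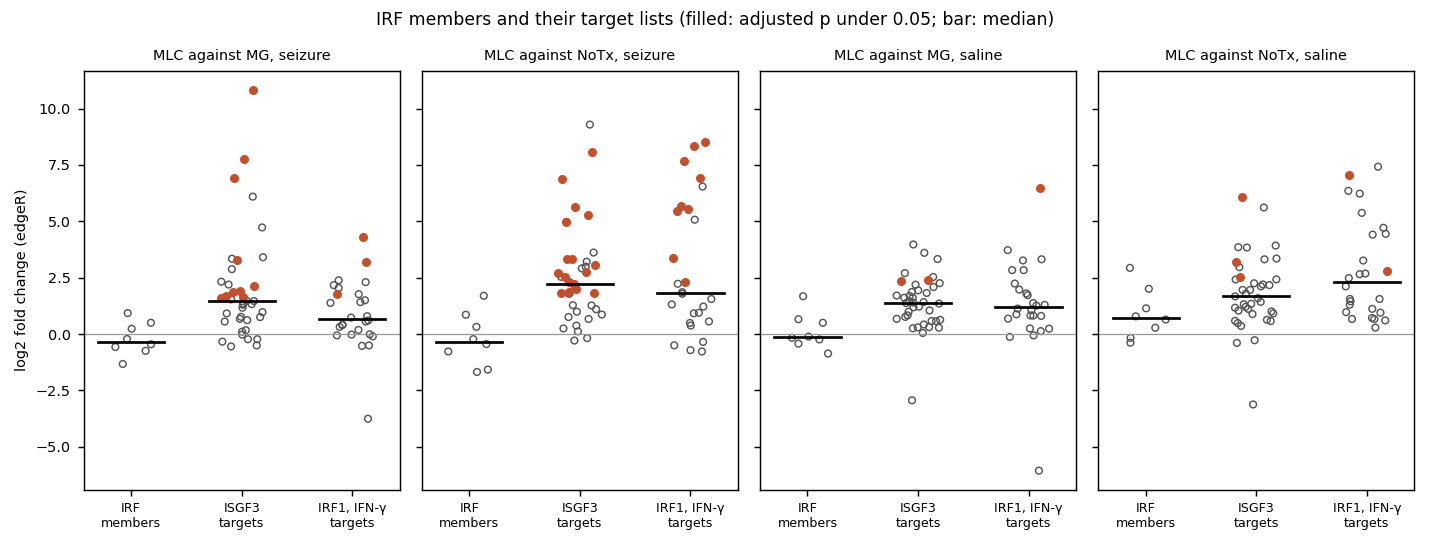
Fitted edgeR log2 fold changes of the 8 IRF members, 39 ISGF3 target genes and 26 target genes of IRF1 and interferon-gamma in the 4 comparisons of MLC with another group; each point is a gene, filled where its adjusted p is under 0.05, and bars are medians. In MLC against NoTx after seizure 18 ISGF3 targets and 9 IRF1 targets are filled against 0 IRF members. Some fitted values are no bounds, since the group compared with MLC is at 0. They are those of Oasl1 against MG and Oas3 against NoTx after seizure, and of Serping1 against NoTx after seizure and after saline.

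Of 8 genes tied to IRF8 in microglia, 5 had positive log2 fold changes in MLC against MG after seizure and 5 after saline. Against NoTx 5 did after seizure and 7 after saline. The medians were 0.62, 0.76, 0.72 and 1.85 in that order, against 0, 0, 0 and 0.08 for all tested genes. Against MG 0 passed as higher and 1 as lower, after seizure and after saline alike. Against NoTx 1 passed as higher and 2 as lower after seizure, and 1 and 1 after saline. Of all tested genes, 5.88% and 1.58% passed against MG after seizure and after saline, and 6.16% and 1.26% against NoTx. P2ry12, a purinergic receptor of resting microglia, was lower in MLC in all 4 comparisons. It averaged 2162 ± 310 CPM in MLC, 15223 ± 3573 CPM in MG and 17918 ± 4915 CPM in NoTx after seizure, a log2 fold change of -2.82 against MG and -3.05 against NoTx. Over the same contrasts Irf8 had log2 fold changes of -0.74 and -0.45 and did not pass. Tlr2 was higher in MLC than in NoTx after seizure and after saline, and Csf1r was lower in MLC than in NoTx after seizure.

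Across the 21 libraries the members did not vary as 1 block. On log2 CPM, Pearson's r was 0.81 between Irf5 and Irf8, 0.78 between Irf3 and Irf5 and 0.75 between Irf2 and Irf8, but 0.06 between Irf8 and Irf9 and -0.61 between Irf4 and Irf9. Irf1 and Irf7 had an r of 0.54. These values describe libraries that share depth and GC trend as well as group, and no test was made of them. Among 5963 tested genes with a mean of at least 4 log2 CPM, those most like Irf5 were Csf1r (r = 0.96), Slc39a7 and Fgd2. Csf1r, the gene floxed in the NoTx animals, stood at 7679 CPM in MLC saline library 3, 11794 CPM in MG saline library 3 and 8537 CPM in NoTx seizure library 3, the libraries with the highest Irf5 of their groups. Irf1 was most like H2-Q6 (r = 0.79), Vps13c and H2-K1, of which H2-Q6 and H2-K1 are MHC class I genes. Irf8 was most like Surf4 (r = 0.89), Rpn1 and Stat3, Irf7 was most like Scly (r = 0.91), Vps13d and Neurl3, and Irf9 was most like Klf6 (r = 0.74), Ntpcr and Cd83. Irf2 was most like Narf (r = 0.95), Wipf2 and Arhgap4, Irf3 was most like Anks3 (r = 0.95), Coro1b and Zdhhc9, and Irf4 was most like Smc1a (r = 0.78), Jarid2 and Ggcx.

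Levels of Irf3, Irf5 and Irf8 were read beside the GC trend of each library. Exons of Irf3 have 56.95% GC, those of Irf5 56.64%, those of Irf7 56.08% and those of Irf8 55.82%, against 46.25% for Irf2 and 50.9% for Irf9. MG saline library 3, with the steepest positive slope (0.85), had the highest Irf5 and Irf8, at 476 and 787 CPM, where MG saline libraries 1 and 2, with slopes of 0.34 and 0.54, had 204 and 203 CPM of Irf5 and 260 and 296 CPM of Irf8. MLC seizure library 5, with the most negative slope (-1.70), had the lowest Irf3 (16.2 CPM) and the lowest Irf8 (123 CPM) of all libraries. It also had the fewest detected genes (13074), with 9512 genes at 10 or more counts when scaled to equal depth. Its Irf5 (30.6 CPM) was above that of MLC seizure library 4 (18.6 CPM). The highest Irf3 (128 CPM) was in NoTx seizure library 3, with a slope of 0.70. The groups differed in the GC slope. The part of that slope, or of the number of detected genes, in the spread of these members was not tested. Slopes ran from -1.70 to 0.10 in MLC, from -0.47 to 0.49 in MG and from -0.38 to 0.70 in NoTx after seizure, and from -0.06 to 0.52 in MLC, from 0.34 to 0.85 in MG and from -0.35 to 0.11 in NoTx after saline.

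**Figure D5:**
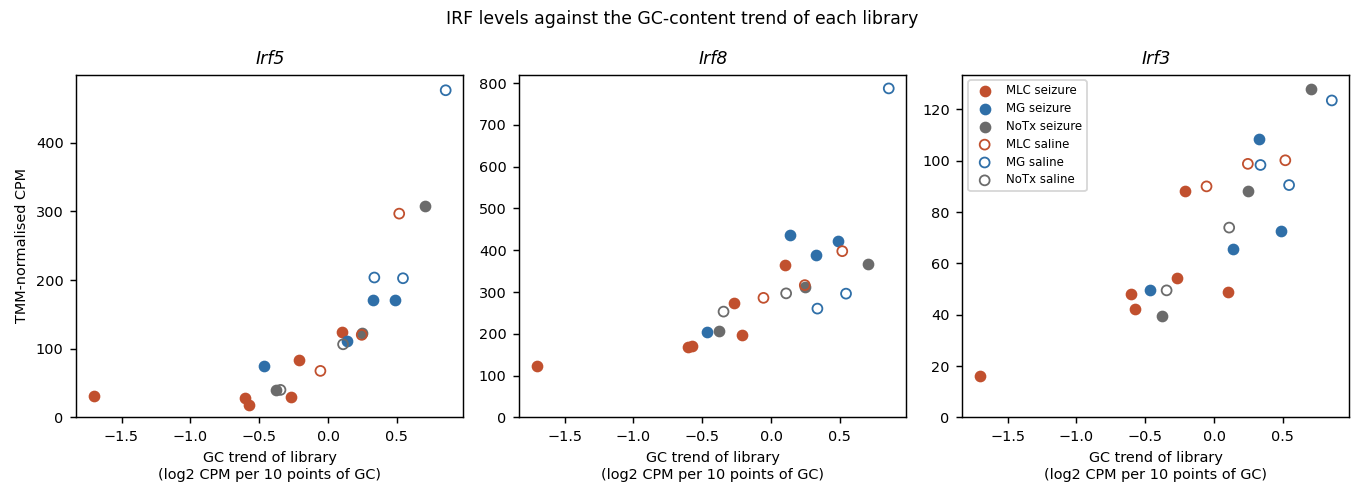
Level of Irf5, Irf8 and Irf3 (CPM, linear axis) in each of the 21 libraries against the slope of gene level on GC content in that library (log2 CPM per 10 percentage points); filled points are seizure libraries and open points saline libraries, coloured by kind of cell. The library at -1.70 has 16.2 CPM of Irf3 and the library at 0.85 has 476 CPM of Irf5 and 787 CPM of Irf8.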

How the data were processed

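The values are estimated counts per gene, as deposited by the authors in 1 table of 21 libraries, not whole for part of the genes and rounded here to whole counts. The submitters' processing notes name Trim Galore 0.6.7, STAR 2.7.10a, featureCounts and the build GRCm39, and do not say what made counts fractional. Libraries came from a low-input kit amplified by PCR, per the labels' protocols, with no molecular identifiers named.

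All libraries entered 1 edgeR quasi-likelihood fit (edgeR 4.0.16 in R 4.3.3, TMM scaling, robust, 6 group means, default filter by group). From it 12 comparisons were taken, 3 of them interactions, with Benjamini-Hochberg adjustment over 18867 genes in each and a limit of 0.05. Standard errors were taken as the absolute log2 fold change divided by the root of the F statistic. DESeq2 1.42.0 and limma 3.58.1 gave other fits. Samples are labelled as biological replicates, and the tests rest on the spread between them. The members, gene lists and tests were chosen with earlier results of these data known, so a list's direction is not independent evidence. Every member is named, as are genes of the lists that passed (at most the 6 largest per list and comparison), receptors and partners, and the 3 genes most like each member; 1 gene of the receptor list is not reported here. Lengths and GC content came from an annotation of GRCm38, matched by gene identifier. GC slopes were fitted over 5928 genes, and the GC correction removed a smooth trend of level on GC content from each library, an alternative added after the data were seen. Outlying libraries were sought with Dixon's test in 16 sets of 4 or 6 libraries, those of MG and MLC after seizure, and 0 stood out. The saline groups and NoTx after seizure were too small for it. The libraries named above as far above their groups in Irf5 were therefore not tested.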

Additional observations from a re-analysis of the deposited data

How the results depend on the processing

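Over 32 other settings, 21 of them leaving out 1 library, 6 of the 96 pairs of a member and a comparison passed anywhere, and no called direction reversed. In MLC against NoTx after saline, 1 member passed with DESeq2, 2 with limma-voom and 1 when only the groups compared were fitted. Of all genes, 669, 1542 and 499 passed in these settings, in place of 237. In MLC against MG, 1 member passed after saline when only the groups compared were fitted, and 1 after seizure with the library code as a block. There 872 and 1207 genes passed in all, in place of 299 and 1109. Leaving out single libraries gave 0 to 1 member in MLC against NoTx after seizure and 0 in the other comparisons. The cause was not tested. Library codes could not be fitted for seizure against saline.

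Same-numbered libraries did not deviate together (correlations of -0.14 to 0.13), and the numbers were read as names of libraries only. After seizure the same number can stand for different library codes, and libraries that share a code were not compared in this way. With the replicate number as a block, 0 members passed in any comparison, and 754 genes in place of 1109 passed in MLC against MG after seizure and 745 in place of 1162 in MLC against NoTx.

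Counts of ISGF3 targets higher in MLC after seizure were 10, 21 and 13 against MG and 18, 24 and 17 against NoTx with edgeR, DESeq2 and limma-voom. After saline they were 2, 7 and 16 against MG and 3, 12 and 18 against NoTx. Without single libraries they ran from 7 to 14 and from 11 to 18 after seizure, the lowest without MG seizure library 2 and NoTx seizure library 2, and from 1 to 4 and from 0 to 4 after saline, at 0 without NoTx saline library 1. Counts of IRF1 targets against MG after seizure ran from 0, without MG seizure library 2, to 5, and those against NoTx from 6, without NoTx seizure library 1, to 12. After saline they ran from 0 to 2 against MG and from 0 to 6 against NoTx, at 0 without MLC saline library 2, any 1 MG library or either NoTx library. All genes called in MLC against MG were 1109 after seizure and 299 after saline with edgeR. They were 2568 and 665 with DESeq2 and 1051 and 1683 with limma-voom. In MLC against NoTx they were 1162 and 237 with edgeR, 2827 and 669 with DESeq2 and 1325 and 1542 with limma-voom. In MG against NoTx after seizure leaving out a library gave 0 to 2 IRF1 targets. Counts of Irf4 limit what can be said of it.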
